A study of Mus musculus with 6 samples.

Results

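Oxidative phosphorylation joins electron transfer to ATP synthesis at the inner mitochondrial membrane. Complexes I and II pass electrons to ubiquinone, complex III passes them on to cytochrome c, complex IV passes them to oxygen, and the ATP synthase, complex V, uses the proton gradient that complexes I, III and IV build. Most of its subunits are encoded in the nucleus and a few in the mitochondrial genome. Cartilage has no blood vessels, and chondrocytes are known for relying largely on glycolysis, with mitochondria that stay in use.

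The genes described here are the nuclear-encoded subunits of that system, chosen by name. They are the protein-coding genes named Nduf (A, B, C, S or V with a number), Sdha to Sdhd, Uqcr, Cox4 to Cox8 forms and Atp5, with Cycs and Cyc1, and without the Ndufaf and Uqcc assembly factors. This gave 86 genes of 43346 in the table: 35 of complex I, 4 of complex II, 9 of complex III, cytochrome c (Cycs), 20 of complex IV and 15 of complex V. The remaining 2, Atp5s and Atp5sl, carry an Atp5 name but are not subunits of the ATP synthase. The name rule misses the complex I subunit Ndufab1, the ATP synthase genes Usmg5 and 2010107E04Rik, and the ATP synthase inhibitor Atpif1. It also leaves out 3 pseudogenes that match by name.

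RNA was sequenced from epiphyseal chondrocytes, the cartilage cells of the growing ends of bones, of wild type and Girk3-/- mice. All were 5 days old and labelled as C57BL/6 males, with 3 libraries per genotype that the study calls biological replicates. Girk3, encoded by Kcnj9, is a subunit of the potassium channels opened by G protein-coupled receptors, and its allele and the cells that lack it are not described further in the labels. The cells were freed by an overnight collagenase digestion and polyadenylated RNA was selected.

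Total counts ran from 34279516 to 60392837 per library. Kcnj9 had 0 counts in all 6 libraries, so it could not check the genotype labels. The limit that such a 0 sets is 3 counts, at 0.0497 to 0.0875 CPM (counts scaled by library size). Girk3-null replicate 1 stood apart in sex: it had 16088 Y-linked counts and 19 of Xist, against 0 to 7 and 67346 to 144825 in the other 5 libraries, although all are labelled male. The main counts and medians are given with and without it. Cartilage markers were abundant, with Col2a1 at 3.12% to 8.25% of all counts. All 13 mitochondrially encoded subunits, like all 37 mitochondrial genes, were listed at 0 in every library, so the nuclear genes could not be set beside their mitochondrial partners.

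The promoters of 3 members are shown because they carry matches to motifs of factors known to drive respiratory chain genes and belong to genes at both ends of the range of differences. NRF1 and GABPA are such factors, and YY1 is another. Windows ran from 250 bases before to 50 after each RefSeq start (GRCm38.p6), and 67 of the 86 members matched one. The printed parts end at or near the start, are on the minus strand and read 5′ to 3′. Capitals mark NRF1 (GCATGCGC) and GABPA (CCGGAAG) matches on either strand. In Cox6a1 the first run of capitals holds 2 overlapping NRF1 matches. Uqcr11 lies at chr10:80406818-80407071, Cox6a1 at chr5:115348959-115349208 and Cycs at chr6:50566570-50566819.
Uqcr11: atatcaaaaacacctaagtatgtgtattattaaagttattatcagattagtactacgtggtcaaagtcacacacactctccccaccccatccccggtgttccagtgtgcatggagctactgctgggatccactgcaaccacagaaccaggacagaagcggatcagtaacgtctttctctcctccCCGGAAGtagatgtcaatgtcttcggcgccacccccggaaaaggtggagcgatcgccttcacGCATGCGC
Cox6a1: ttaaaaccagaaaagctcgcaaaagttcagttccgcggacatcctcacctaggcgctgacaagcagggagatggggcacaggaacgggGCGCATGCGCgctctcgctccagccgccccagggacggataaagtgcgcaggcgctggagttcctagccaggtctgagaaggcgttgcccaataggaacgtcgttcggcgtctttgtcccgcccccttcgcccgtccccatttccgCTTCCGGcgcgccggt
Cycs: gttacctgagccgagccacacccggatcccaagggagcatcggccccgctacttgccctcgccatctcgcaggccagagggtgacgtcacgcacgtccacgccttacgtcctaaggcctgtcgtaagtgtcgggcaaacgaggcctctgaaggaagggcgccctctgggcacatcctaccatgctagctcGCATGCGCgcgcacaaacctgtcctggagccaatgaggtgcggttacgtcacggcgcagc

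The NRF1 letters were found in 11 of 67 member windows (16.4%), against 2.80% of all 27025 windows. The GABPA letters were found in 15 (22.4%), against 9.12%, and the YY1 letters, AAGATGGC, in 8 (11.9%), against 2.88%. Of the 8 YY1 matches, 7 were in complex I genes. Both strands were searched, and a match is a description of letters, not of binding.

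Members were well expressed. The median member that could be tested stood at 22.9 RPKM (reads scaled by gene length and library size), against 3.95 RPKM for all tested genes, and 77 of 84 were above that median. Over 10 RPKM were 65 of the 86. The complex medians were 18.1 RPKM for complex I, 21.0 for complex II, 35.7 for complex III, 37.0 for complex IV and 33.7 for complex V.

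Ndufa4l2, a paralogue of the complex IV subunit Ndufa4 that is known to be induced in low oxygen, had the highest level of all members. It measured 193 ± 40.2 RPKM in wild type and 260 ± 64.0 RPKM in Girk3-null libraries (mean ± SD, n = 3 each), and ranked 181 among all tested genes. Next by their mean over all 6 libraries were Cox6b1, a common complex IV subunit, at 129 RPKM, Uqcrh, the hinge protein of complex III, at 123 RPKM, and Atp5a1, the alpha subunit of the ATP synthase, at 120 RPKM. Cox4i2, the oxygen-responsive form of complex IV subunit 4, was also among the 10 highest at 79.2 RPKM. In complex I the levels ran from 50.9 RPKM for Ndufa2 down to 1.93 RPKM for Ndufb2. The listed length of Ndufb2 is 5628 bases, and in CPM it lay above Ndufb4, at 10.9 against 4.17 in wild type. At the bottom were tissue-restricted complex IV forms: Cox7b2 had 0 counts in every library, Cox8c had 5 counts in wild type replicate 3 and 1 in Girk3-null replicate 3, and these 2 were too low to test.

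**Figure D1:**
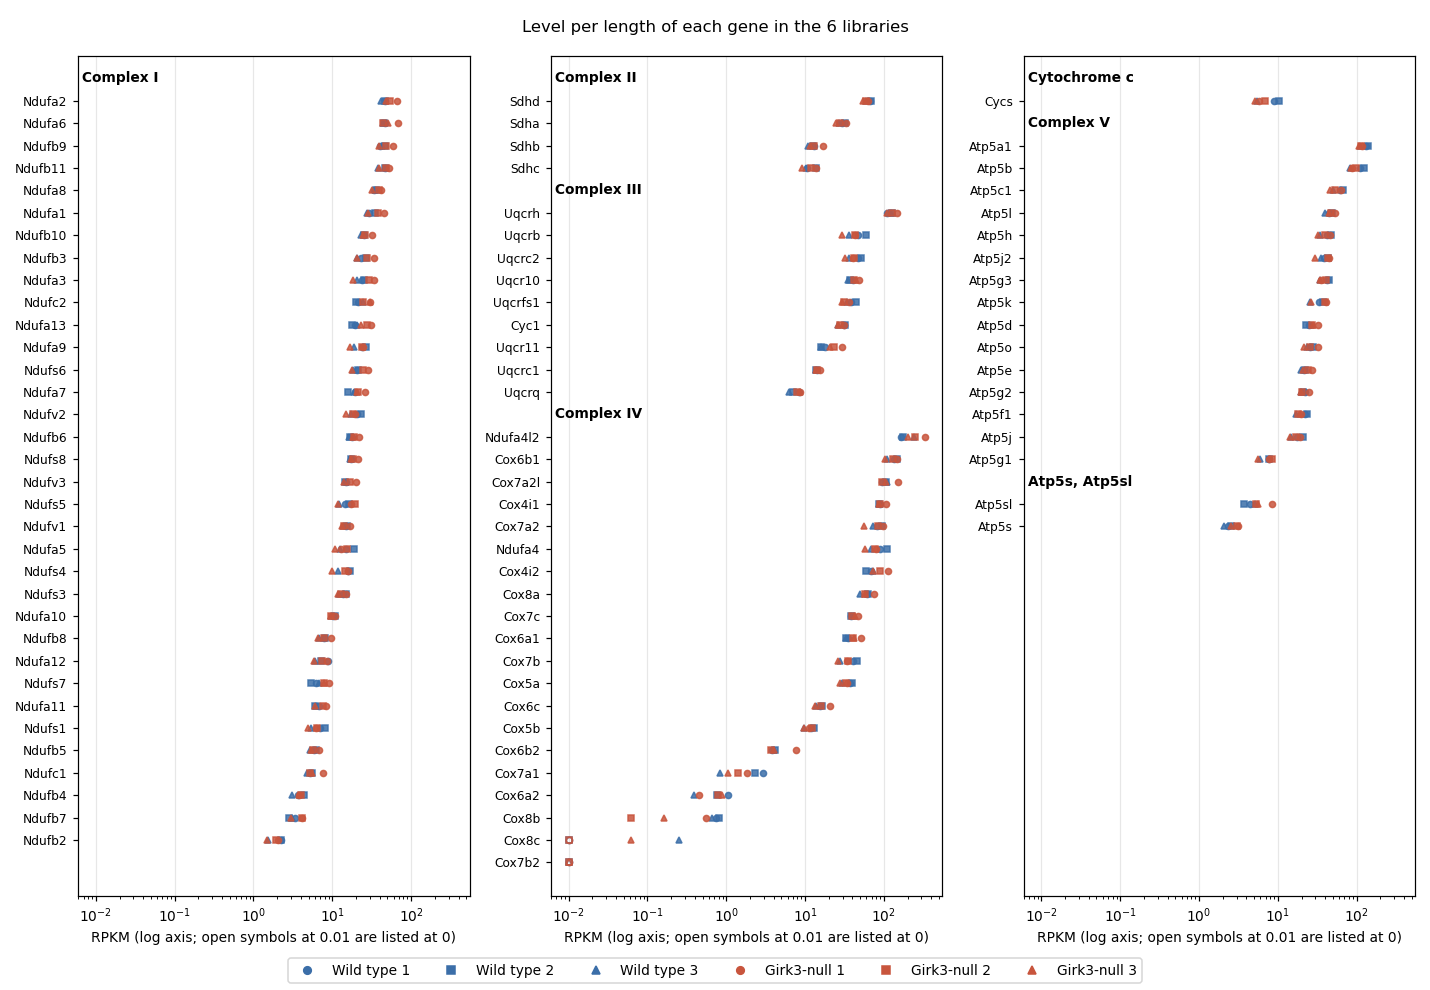
Level of each member (1 of complex I left out) on the horizontal axis in RPKM (log axis), by complex, with 1 symbol per library (shape for the replicate, blue for wild type, red for Girk3-null) and open symbols for values listed at 0. Most members lie between 10 and 100 RPKM, Ndufa4l2 is highest, and Cox7b2, Cox8c, Cox8b, Cox6a2 and Cox7a1 of complex IV lie lowest.

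Between the genotypes, no member passed. In edgeR's quasi-likelihood test adjusted over all 17554 genes, 0 of 84 tested members were higher and 0 lower, where 0.0057% of all genes passed as higher and 0% as lower. At an unadjusted p under 0.05, 20 members were higher in Girk3-null libraries and 0 were lower. That is 23.8% of the tested members, against 7.49% of all genes for higher and 7.02% for lower. In 24 members every Girk3-null library was above every wild type library (28.6%, against 9.86% of all genes), and in 1 member, Cox8b, every one was below (1.19%, against 10.2%). The log2 fold change, Girk3-null over wild type, was positive for 63 of the 84 members, against 51.8% of all genes, with a median of 0.18 beside 0.01 for all genes. Without Girk3-null replicate 1, 54 members were positive (50.5% of all genes), and the median was 0.10. At an unadjusted p under 0.05, 8 were then higher (4.93% of all genes) and 1 lower (4.77% of all genes). In bulk RNA, a change in the make-up of the cells and a change in RNA per cell cannot be told apart.

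The members higher at an unadjusted p under 0.05 came from complexes I, III, IV and V. In complex I they were Ndufs7, Ndufa1, Ndufa2, Ndufa7, Ndufa13, Ndufb6, Ndufb7, Ndufb10, Ndufc2 and Ndufv3. In complex III they were Uqcr10, Uqcr11 and Uqcrq, in complex IV Cox6a1, Cox4i2 and Ndufa4l2, and in complex V Atp5d and Atp5e. Atp5s and Atp5sl completed the 20. All but Ndufa1 and Ndufa4l2 had groups that did not overlap. Ndufs8, Ndufb5, Ndufc1, Uqcrc1, Cox4i1 and Atp5l also had groups that did not overlap, at an unadjusted p above 0.05.

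**Figure D2:**
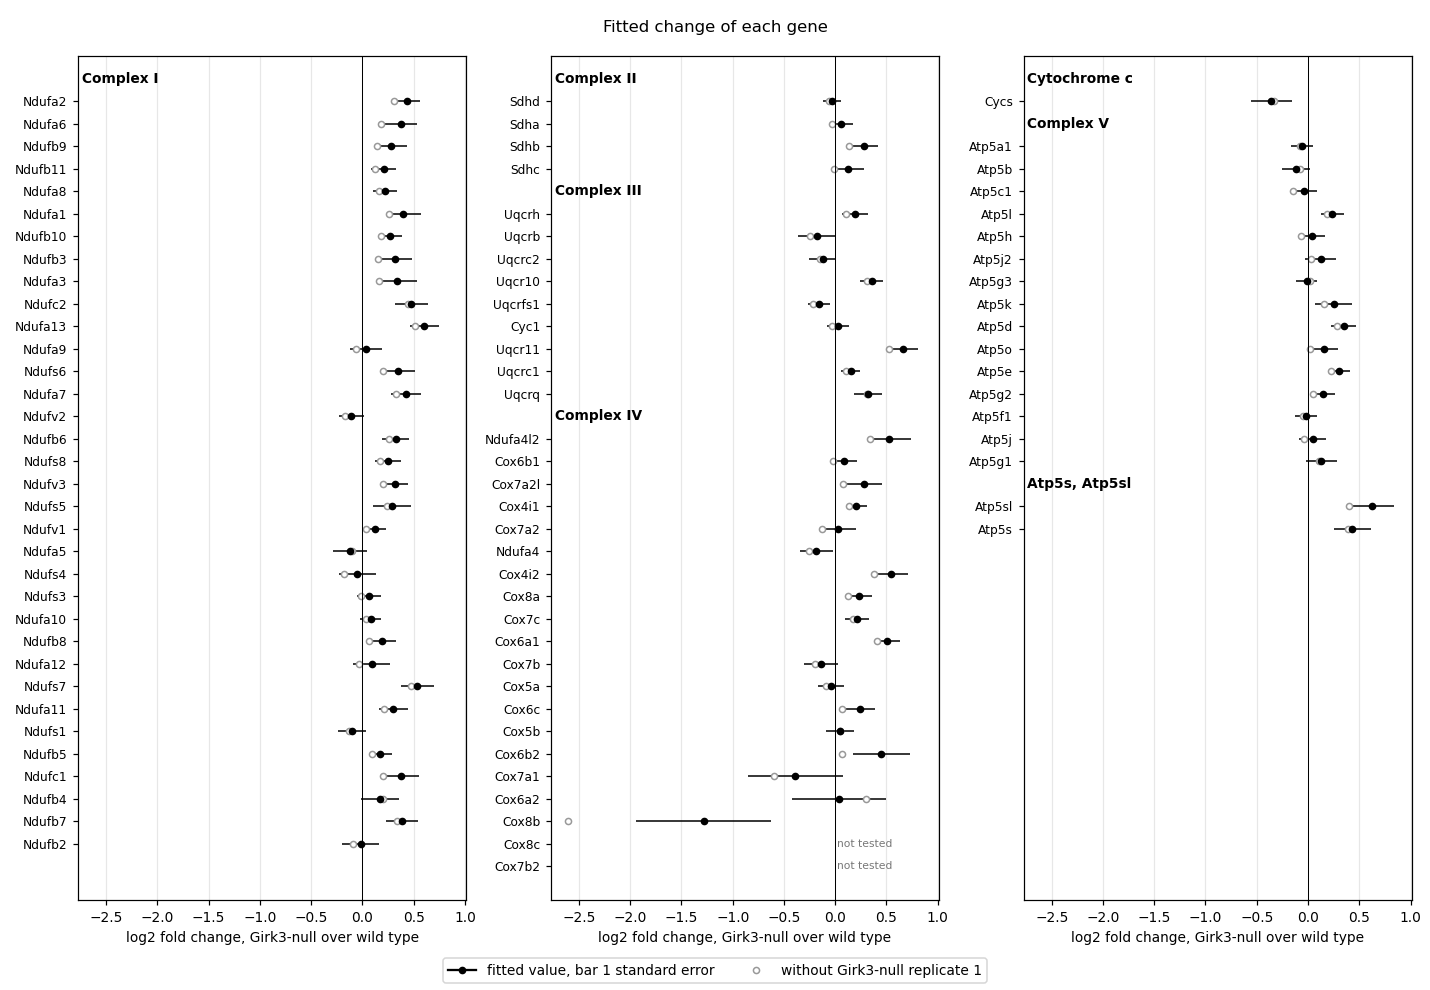
Log2 fold change, Girk3-null over wild type, of each tested member (1 of complex I left out) by complex, with bars of 1 standard error from the edgeR fit and open circles for the fit without Girk3-null replicate 1. Most filled points lie above 0, up to 0.66 for Uqcr11, and Cox8b is lowest at -1.28 with the widest bar.

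In complex I, the NADH dehydrogenase, 29 of 35 members had a positive log2 fold change, against 51.8% of all genes. Of the 7 core subunits, which carry the flavin and iron-sulfur clusters, 4 lay above 0 in log2 fold change and the median was 0.07. Of the 28 supernumerary subunits, which surround the core and are needed for assembly and stability, 25 lay above 0 and the median was 0.29. These medians were -0.02 and 0.18 without Girk3-null replicate 1. At an unadjusted p under 0.05, 1 core and 9 supernumerary subunits were higher, where 7.49% of all genes were. The difference between core and supernumerary subunits was not tested.

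Ndufa13, a supernumerary subunit also known as GRIM-19 (chromosome 8, 69894188 to 69902558, mm10), measured 22.9, 20.6 and 26.1 CPM in wild type replicates 1, 2 and 3. It measured 39.6, 35.8 and 30.4 CPM in Girk3-null replicates 1, 2 and 3. Every Girk3-null library was above every wild type library, with replicate 1 highest. The log2 fold change was 0.60 (standard error 0.14), or 0.51 without Girk3-null replicate 1, and edgeR gave an adjusted p of 0.291. Its exons overlap Tssk6 on the opposite strand, which had 17 counts in all. Such an overlap was found for 20 members, and reads cannot be assigned between the strands where counting ignores strand.

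Ndufa2, a supernumerary subunit of the peripheral arm, measured 24.9 CPM in each of the 3 wild type libraries. The Girk3-null libraries stood at 39.1, 32.1 and 29.5 CPM, all above that level. The log2 fold change was 0.43 (standard error 0.13), and edgeR gave an adjusted p of 0.291. Its exons also overlap a gene on the opposite strand, Tmco6. Ndufs7, an iron-sulfur core subunit near the ubiquinone site, measured 10.04, 8.52 and 12.03 CPM in wild type and 15.9, 13.9 and 14.3 CPM in Girk3-null libraries, which did not overlap (log2 fold change 0.53). The other core subunits lay closer to 0, from -0.11 for Ndufv2 (-0.17 without Girk3-null replicate 1) to 0.25 for Ndufs8.

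Complex II, succinate dehydrogenase, also serves the tricarboxylic acid cycle and has no mitochondrially encoded subunit. Its 4 genes had a median log2 fold change of 0.09 (-0.02 without Girk3-null replicate 1), and 0 were higher or lower at an unadjusted p under 0.05. Sdhb, the iron-sulfur subunit, measured 27.6, 26.3 and 25.01 CPM in wild type and 38.2, 30.3 and 27.3 CPM in Girk3-null libraries. The groups overlapped at Girk3-null replicate 3, and the log2 fold change was 0.28, or 0.13 without Girk3-null replicate 1. Sdhd, a membrane anchor with the highest level of the complex, measured 80.8, 81.9 and 78.3 CPM against 81.5, 78.5 and 75.4 CPM and overlapped. Sdhc, the other anchor, lies 1.17 Mb from Kcnj9 on chromosome 1; it measured 32.1, 41.4 and 34.3 CPM in wild type and 46.0, 39.5 and 31.8 CPM in Girk3-null libraries. These values overlapped, and the log2 fold change of Sdhc was 0.12, or -0.01 without Girk3-null replicate 1.

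Complex III, the cytochrome bc1 complex, held the member with the most positive log2 fold change. Uqcr11, a small accessory subunit (chromosome 10, 80402997 to 80406830, mm10), measured 10.8, 9.58 and 10.6 CPM in wild type replicates 1, 2 and 3. It measured 19.2, 15.2 and 14.3 CPM in Girk3-null replicates 1, 2 and 3. The groups did not overlap. The log2 fold change was 0.66 (standard error 0.15), or 0.52 without Girk3-null replicate 1, and edgeR gave an adjusted p of 0.291. Uqcr10, another small accessory subunit, measured 22.0, 20.3 and 21.3 CPM against 29.0, 24.9 and 27.5 CPM, which did not overlap (log2 fold change 0.36).

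Other subunits of complex III, with and without a redox centre, lay closer to 0 than Uqcr11 and Uqcr10. Cyc1, the cytochrome c1 subunit, had a log2 fold change of 0.03 (-0.03 without Girk3-null replicate 1). Uqcrfs1, the Rieske iron-sulfur protein, had -0.16 (-0.22 without that library). Of the core proteins without a redox centre, Uqcrc1 had 0.15 and Uqcrc2 -0.12. Uqcrh measured 126, 145 and 156.2 CPM in wild type and 183, 160 and 146 CPM in Girk3-null libraries. The groups overlapped, and the log2 fold change was 0.20, or 0.11 without Girk3-null replicate 1. Uqcrb, which lies next to cytochrome b, measured 39.1, 48.1 and 33.1 CPM in wild type and 38.7, 39.3 and 27.9 CPM in Girk3-null libraries. It overlapped too, with a log2 fold change of -0.18.

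Cycs, the mobile carrier between complexes III and IV that also triggers apoptosis when released, had one of the 3 most negative log2 fold changes among members above a mean log2 CPM of 1. It measured 28.9, 32.4 and 18.9 CPM in wild type and 20.3, 23.8 and 18.5 CPM in Girk3-null libraries. Wild type replicate 3 lay within the range of the Girk3-null libraries. The log2 fold change was -0.36 (standard error 0.20), and edgeR gave an adjusted p of 0.416.

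In complex IV, cytochrome c oxidase, the 11 common subunits had a median log2 fold change of 0.08 (0.05 without Girk3-null replicate 1). Of these, 8 were positive (51.8% of all genes) and 1 was higher at an unadjusted p under 0.05 (7.49% of all genes). That one, Cox6a1, the widely expressed form of subunit 6A (chromosome 5, 115345642 to 115348981, mm10), measured 23.3, 21.6 and 23.7 CPM in wild type replicates 1, 2 and 3. It measured 36.7, 29.1 and 31.7 CPM in Girk3-null replicates 1, 2 and 3. The groups did not overlap. The log2 fold change was 0.51 (standard error 0.12), or 0.41 without Girk3-null replicate 1, and edgeR gave an adjusted p of 0.291. Cox4i1, the common form of subunit 4, measured 129, 126 and 137 CPM against 166, 143 and 144 CPM, which did not overlap (log2 fold change 0.21, or 0.13 without Girk3-null replicate 1). Ndufa4, first assigned to complex I and now placed in complex IV, measured 41.2, 49.4 and 35.1 CPM against 40.4, 39.6 and 30.6 CPM, which overlapped (log2 fold change -0.18).

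Several complex IV subunits exist in a common form and a form restricted to certain tissues or conditions. Cox4i2 (chromosome 2, 152754173 to 152765037, mm10) measured 51.5, 43.6 and 58.7 CPM in wild type replicates 1, 2 and 3. It measured 90.3, 72.1 and 61.1 CPM in Girk3-null replicates 1, 2 and 3. The groups did not overlap, though Girk3-null replicate 3 was close to wild type replicate 3. The log2 fold change was 0.54 (standard error 0.17), or 0.38 without Girk3-null replicate 1, and edgeR gave an adjusted p of 0.291. Ndufa4l2 (chromosome 10, 127514939 to 127517152, mm10) measured 149.6, 154 and 237 CPM in wild type and 322, 247 and 208 CPM in Girk3-null libraries. Wild type replicate 3 was above Girk3-null replicate 3, so the groups overlapped, and the log2 fold change was 0.52 (standard error 0.22), and edgeR gave an adjusted p of 0.329. Without Girk3-null replicate 1 the log2 fold change of Ndufa4l2 was 0.34. Ndufa4l2 shares 2.92% of its exon bases with Shmt2 on the opposite strand.

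As a share of its pair on the RPKM scale, Cox4i2 made up 40.5% to 45.6% of Cox4i1 and Cox4i2 in wild type and 45.5% to 51.7% in Girk3-null libraries. Ndufa4l2 made up 61.5% to 77.6% of Ndufa4 and Ndufa4l2 in wild type and 76.2% to 80.4% in Girk3-null libraries. The differences in log2 ratio, on RPKM + 0.1, were 0.33 for Cox4i2 over Cox4i1 and 0.71 for Ndufa4l2 over Ndufa4. Each gave p = 0.2 in a two-sided exact permutation test, adjusted to 0.4 over the 6 pairs, where 3 against 3 libraries cannot go below 0.1. Both shares overlapped between the groups. Cox4i1 shares 9.94% of its exon bases with Emc8 on the opposite strand, which had 5360 counts in all. The Cox4i1 gene also overlaps Gm20388 on the same strand, which had more counts in all than the 39243 of Cox4i1. The part of these overlaps in the level of Cox4i1 and in the share of Cox4i2 was not tested.

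The muscle forms had low counts. Cox8b, the heart and skeletal muscle form of subunit 8, had 12, 15 and 10 counts in wild type and 12, 1 and 2 counts in Girk3-null libraries. All 3 Girk3-null libraries were lower in CPM, with a log2 fold change of -1.28 (standard error 0.66), and edgeR gave an adjusted p of 0.382. Without Girk3-null replicate 1, Cox8b had a log2 fold change of -2.60 and was the 1 member lower at an unadjusted p under 0.05. Its log2 ratio to Cox8a differed by -1.60 (exact permutation p = 0.1, the smallest possible, and 0.4 adjusted). Cox6a2 had 11 to 31 counts and Cox7a1 13 to 48 counts per library, both muscle forms, with log2 fold changes of 0.04 and -0.39 and overlapping groups (0.30 and -0.60 without Girk3-null replicate 1). The common forms Cox7a2 and Cox8a had log2 fold changes of 0.02 and 0.24 (-0.13 and 0.12 without that library). Cox6b2, known from testis, measured 4.002, 4.30 and 4.66 CPM against 8.57, 4.24 and 4.83 CPM, so that Girk3-null replicate 2 lay within the wild type range and replicate 1 far above it. Its log2 fold change was 0.45, or 0.07 without Girk3-null replicate 1, and that of Cox6b1 was 0.08, or -0.02. Skeletal muscle markers, which these forms share a tissue with, were negative for 16 of 21 (median -0.85, or -1.55 without Girk3-null replicate 1). At an unadjusted p under 0.05, 9 of these markers were lower, where 7.02% of all genes were. Their summed level was 106, 97.3 and 48.7 CPM in wild type and 61.7, 28.1 and 43.2 CPM in Girk3-null libraries, and their part in the level of Cox8b was not tested.

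**Figure D3:**
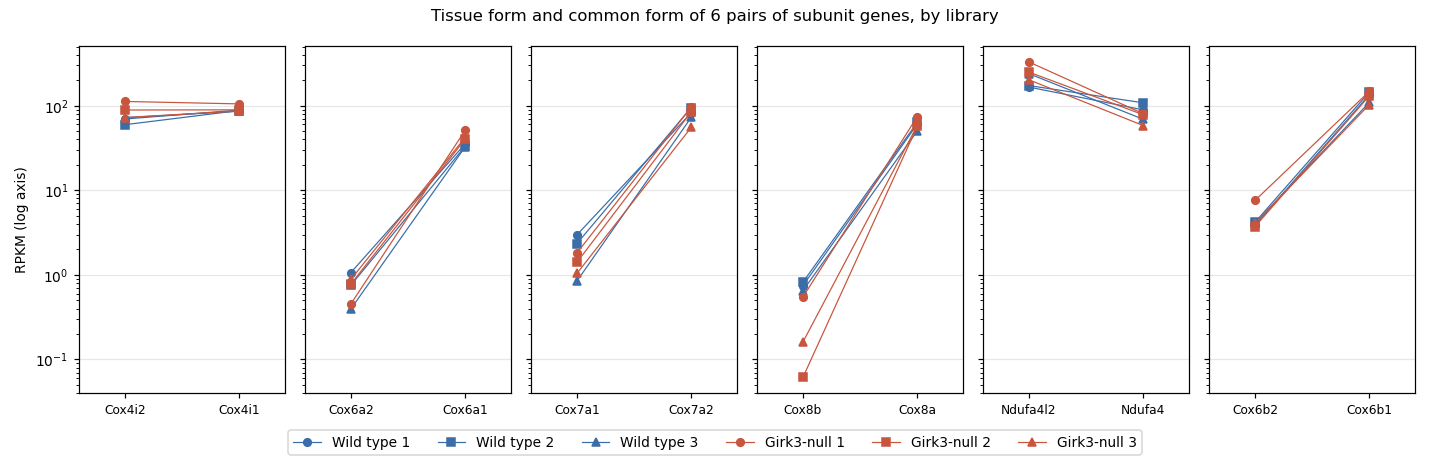
Level in RPKM (log axis) of the tissue form (left) and the common form (right) of each of 6 pairs, with a line joining the values of 1 library (shape for the replicate, blue for wild type, red for Girk3-null). Cox4i2 is close to Cox4i1 and Ndufa4l2 is above Ndufa4 in every library, while Cox6a2, Cox7a1, Cox8b and Cox6b2 lie far below their common forms.

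In the ATP synthase the large subunits of the catalytic head had log2 fold changes near 0, and 2 small subunits of the central stalk were higher at an unadjusted p under 0.05. Atp5a1 measured 388, 405 and 358 CPM in wild type and 377, 372 and 356 CPM in Girk3-null libraries, which overlapped (log2 fold change -0.06). Atp5b, the catalytic beta subunit, had a log2 fold change of -0.11. Atp5d, the delta subunit, measured 44.8, 41.3 and 52.0 CPM in wild type and 64.0, 54.1 and 57.9 CPM in Girk3-null libraries. Atp5e, the epsilon subunit, measured 35.8, 35.5 and 35.2 CPM against 48.2, 43.6 and 39.4 CPM. Neither overlapped, with log2 fold changes of 0.35 and 0.30 and adjusted p-values of 0.292 and 0.299 in edgeR. Without Girk3-null replicate 1 the log2 fold changes of Atp5d and Atp5e were 0.28 and 0.23. Neither then had an unadjusted p under 0.05 in edgeR. With an offset for GC content in each library they were 0.11 and 0.29.

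The other 10 genes of complex V, of the peripheral stalk and the membrane part, had a median log2 fold change of 0.13 (0.03 without Girk3-null replicate 1). Of these, 8 were positive (51.8% of all genes). The rotor ring subunit c is encoded by 3 genes that give the same mature protein. Over all 6 libraries Atp5g3 made up 57.5% ± 2.80, Atp5g2 31.8% ± 2.84 and Atp5g1 10.7% ± 0.994 of their summed RPKM (SD, n = 6). These shares depend on the listed gene lengths, 4912 bases for Atp5g1 and 1675 for Atp5g2. The total counts of Atp5g1 and Atp5g2 were close, at 9896 and 9973. Of the 2 genes that are not subunits, Atp5sl, a factor for assembly of the complex I membrane arm, measured 12.2, 10.2 and 15.4 CPM in wild type and 24.9, 15.7 and 17.5 CPM in Girk3-null libraries (log2 fold change 0.62, or 0.40 without Girk3-null replicate 1). The groups did not overlap, by a narrow margin between wild type replicate 3 and Girk3-null replicate 2.

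DESeq2, run as an alternative, called 3 members higher and 0 lower at an adjusted p of 0.05, where it called 1.05% of all genes higher and 0.889% lower. They were Uqcr11 (adjusted p = 0.0155), Ndufa13 (adjusted p = 0.0224) and Cox6a1 (adjusted p = 0.0342). Over all alternatives run, their adjusted p-values reached up to 0.814. DESeq2 without Girk3-null replicate 1 called 0 members, where it called 0.367% of all genes higher and 0.284% lower, and had 8 members higher and 1 lower at an unadjusted p under 0.05 (4.64% and 5.32% of all genes).

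The 6 libraries differed in the members as a whole beyond the genotypes. The median deviation of the members from their own mean, on the log2 CPM scale, was -0.10, -0.03 and -0.13 in wild type replicates 1, 2 and 3. It was 0.25, 0.07 and -0.08 in Girk3-null replicates 1, 2 and 3. Girk3-null replicate 3 thus lay among the wild type libraries. Girk3-null replicate 1 held the highest value of 58 of the 84 members (69.0%), where it held the highest of 27.8% of all genes. Girk3-null replicate 3 held the lowest value of 28 members. Members above their own mean numbered 27, 37 and 10 in the wild type and 78, 64 and 28 in the Girk3-null libraries.

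**Figure D4:**
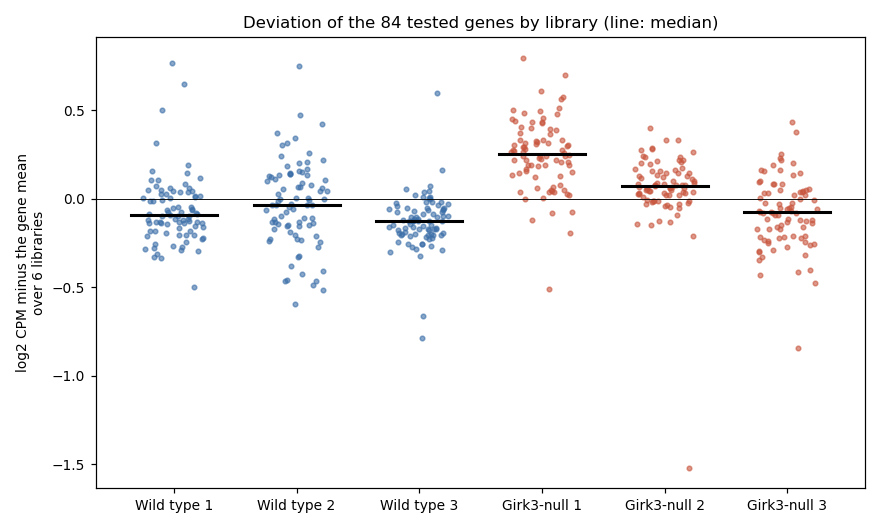
Deviation of each tested member from its mean over the 6 libraries, in log2 CPM, by library, with 1 point per gene and a line at the median. The median is highest in Girk3-null replicate 1, at 0.25, and Girk3-null replicate 3 lies at -0.08, among the wild type libraries.

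Base composition moved with the difference, in members and in genes at large. Across the 84 members the log2 fold change had a Spearman correlation of 0.36 with the GC content of the longest transcript, and across 17388 tested genes with a GC value it was 0.37. These are correlations across genes of the same libraries, and genes are not independent replicates. In the members lowest, middle and highest in GC content, 28 each, the median log2 fold change was 0.05, 0.14 and 0.28. All tested genes in the same GC ranges had medians of -0.10, 0.03 and 0.17. With an offset for GC content in each library, chosen after seeing the data, the member median was 0.11, 61 of 84 were positive (49.2% of all genes) and 17 were higher at an unadjusted p under 0.05, where 5.42% of all genes were. Under that offset the log2 fold change was 0.40 for Uqcr11, 0.35 for Ndufa13, 0.37 for Cox4i2, 0.27 for Ndufa4l2, 0.18 for Cox6a1 and -0.01 for Cox4i1.

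**Figure D5:**
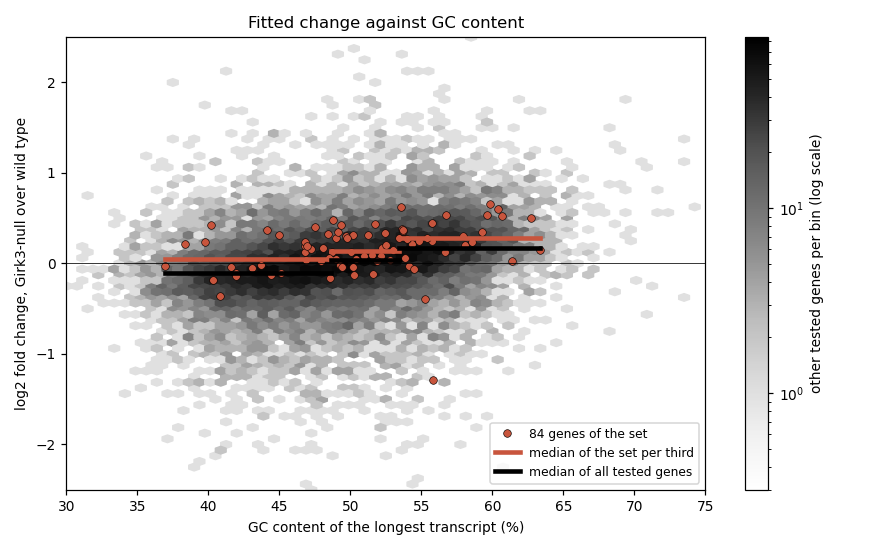
Log2 fold change against GC content of the longest transcript, in percent, for tested genes (shading, darker for more genes per bin on a log scale) and for the 84 members (points), with lines at the medians in each GC range. Both medians rise from the lowest to the highest range, and 30 tested genes lie outside the axes.

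The scaling of the libraries also moved the sign of some members. With library totals alone in place of TMM factors, the median of all genes shifted from 0.01 to -0.09 and that of the members from 0.18 to 0.07. The members lay 0.17 above all genes in both, because a change of scaling moves all genes by nearly the same amount. That gap was 0.092 without Girk3-null replicate 1, 0.11 with the GC offset and 0.25 without Girk3-null replicate 3. Under library totals 51 members were positive (38.8% of all genes), and 8 were higher at an unadjusted p under 0.05, where 4.19% of all genes were.

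Of the other genes of the pathway, 0 passed in edgeR adjusted over all genes. Of 40 assembly factors, 26 were positive (51.8% of all genes), with a median log2 fold change of 0.08 (0.02 without Girk3-null replicate 1). At an unadjusted p under 0.05, 3 of them were higher and 1 lower, where 7.49% and 7.02% of all genes were. Uqcc2, an assembly factor of complex III, measured 18.6 ± 1.64 CPM in wild type and 27.7 ± 7.35 CPM in Girk3-null libraries (mean ± SD, n = 3 each). Timmdc1, of complex I, measured 9.41 ± 0.422 against 13.5 ± 1.32 CPM, and Ndufaf4, also of complex I, 15.2 ± 2.41 against 11.0 ± 1.74 CPM. Of 15 regulators of mitochondrial biogenesis, 7 were positive (51.8% of all genes), with a median of -0.04. Among them Tfam, which packages and transcribes mitochondrial DNA, measured 32.9 ± 3.60 against 25.8 ± 0.844 CPM. Tfb1m, which modifies mitochondrial ribosomal RNA, measured 2.62 ± 0.393 against 4.07 ± 0.562 CPM, and Esrra, a nuclear receptor that drives respiratory genes, 7.98 ± 1.05 against 11.1 ± 2.51 CPM.

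The tricarboxylic acid cycle and pyruvate dehydrogenase genes had a median of 0.01 (-0.09 without Girk3-null replicate 1), with 9 of 17 positive (51.8% of all genes). The adenine nucleotide and phosphate carriers, listed together with the Vdac channels of the outer membrane, had a median of -0.15 (-0.10 without Girk3-null replicate 1). Of these, 1 of 6 was positive (51.8% of all genes). That one was Slc25a4, the ATP and ADP exchanger of heart and muscle, at 129 ± 5.48 against 157 ± 14.3 CPM. Mitochondrial ribosomal proteins had a median of 0.04, with 45 of 77 positive, and cytosolic ribosomal proteins 0.10, with 67 of 82 positive (51.8% of all genes). Leaving out Girk3-null replicate 1 gave 0.00050 and 0.04. The 4 genes missed by the name rule were split: Atpif1 measured 26.1 ± 1.43 against 32.4 ± 2.83 CPM, while Ndufab1 measured 33.8 ± 4.36 against 30.9 ± 4.12 CPM. Their median was -0.06.

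Markers of other cells that a digest can carry moved in the same comparison. Negative log2 fold changes were found for 10 of 12 endothelial markers (median -1.12), 10 of 11 erythroid markers (median -1.10) and 7 of 9 markers of pericytes and smooth muscle (median -0.67). Of all genes, 51.8% were positive. At an unadjusted p under 0.05, 6 endothelial and 0 erythroid markers were lower, where 7.02% of all genes were. In 8 endothelial and 0 erythroid markers every Girk3-null library was below every wild type library (10.2% of all genes). Summed endothelial markers stood at 187 to 261 CPM in wild type and at 87.8, 149.6 and 157 CPM in Girk3-null replicates 1, 2 and 3. Summed erythroid markers stood at 79.1 to 280 CPM and 56.8 to 161 CPM. Summed pericyte and smooth muscle markers stood at 732 to 1427 CPM and 700.0 to 1425 CPM, most of it from Cspg4; without that gene the sums were 193, 174 and 117 CPM in wild type and 78.8, 130.3 and 134 CPM in Girk3-null libraries. Pericytes are known to express Cox4i2 and Ndufa4l2. Of the 9 markers of pericytes and smooth muscle, 3 were lower in Girk3-null libraries at an unadjusted p under 0.05 (7.02% of all genes). They were Kcnj8, Rgs5 and Abcc9. In 1 of the 9, every Girk3-null library was below every wild type library (10.2% of all genes). Of 14 cartilage markers, 13 were positive (median 0.60), where 51.8% of all genes were. Without Girk3-null replicate 1 the medians were -0.75 for endothelial, -0.68 for erythroid, -0.25 for pericyte and smooth muscle and 0.79 for cartilage markers, and 0.17 for the brown adipocyte markers. Of the brown adipocyte markers 3 could be tested (median 0.53). They were Cidea, at 6.04 ± 1.27 CPM in wild type and 8.73 ± 2.16 CPM in Girk3-null libraries, Fabp4, at 60.6 ± 27.5 against 39.9 ± 13.8 CPM, and Plin1, at 0.231 ± 0.0945 against 0.579 ± 0.587 CPM. Ucp1, which defines brown fat cells, had 12 counts over all 6 libraries and was not tested. The part of these cells in the members' values was not tested.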

How the data were processed

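Polyadenylated RNA of 3 wild type and 3 Girk3-null libraries was analysed. Groups follow the genotype label, and replicate numbers follow deposit order and pair no samples. The table holds raw gene counts per library, as the authors deposited them. It also holds RPKM that the authors scaled by library total and gene length (per the file headers). STAR 2.5.2b, bcl2fastq 2.19.0 and build mm10 are named in the submitters' processing notes; no source used here names the counting tool, annotation or strand setting.

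Counts were tested with edgeR 4.0.16 in R 4.3.3 (quasi-likelihood F-test, genotype alone, TMM, filterByExpr with a minimum count of 10 and total of 15) over 17554 genes, with Benjamini-Hochberg adjustment and a threshold of 0.05. CPM are TMM-scaled, and SDs are over 3 libraries. Standard errors were derived from the F statistic and the log2 fold change. Low counts and 0s are limited by counting error only as stated, since reads are not independent molecules. Alternatives used DESeq2 1.42.0, limma 3.58.1, other scalings and left-out libraries; 2, the GC offset and DESeq2 without Girk3-null replicate 1, were added after seeing the data. The edgeR step was checked on simulated data. GC content and exon overlaps came from GENCODE M21. Promoter windows came from RefSeq, and the YY1 letters are the start of a longer form that was searched first and found in fewer windows.

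The members, lists, tests and the rule for naming genes were chosen with earlier results of these data known. Values per library are given for the highest by RPKM and the 2 smallest p-values of each complex, the isoform pairs, and the 3 most positive and most negative log2 fold changes among members averaging 1 or more in log2 CPM. Ndufs7 was added after its values were seen. From other lists at most 3 genes with the smallest p-values were named, except that Ndufab1 and Atpif1 stand for the 4 missed by the name rule, and that Ucp1 and Cspg4 were chosen after their values were seen. For 1 complex I member, which stays in the counts and medians, no value of its own is reported here.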

Additional observations from a re-analysis of the deposited data

How the results depend on the processing

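Over 16 alternatives, edgeR and limma called 0 members at an adjusted p of 0.05 under every setting, and DESeq2 called 3 (0 without Girk3-null replicate 1). The count higher at an unadjusted p of 0.05 was 20 in the report (7.49% of all genes). It was 8 with library totals (4.19% of all genes) and with limma on log2(RPKM + 0.1) (3.82%) or log2(RPKM + 1) (3.79%). It was also 8 with DESeq2 without Girk3-null replicate 1 (4.64%). A covariate for sample title numbers below or above 200 gave 26 higher (7.05% of all genes). With it 70 of 84 members were positive (51.9% of all genes), at a median log2 fold change of 0.21. Leaving out single libraries gave 8 to 30 higher at an unadjusted p of 0.05. All genes stood at 2.91% without wild type replicate 2 and 4.93% without Girk3-null replicate 1, both with 8. They stood at 8.07% without Girk3-null replicate 3, with 30. The count lower was 1 with limma-voom (7.43% of all genes), log2(RPKM + 0.1) (11.4%) and log2(RPKM + 1) (11.5%). It was also 1 with DESeq2 without Girk3-null replicate 1 (5.32%). Leaving out single libraries gave 0 to 1 lower, where 2.49% to 10.8% of all genes were. Members with groups that do not overlap were 12 higher with library totals and both RPKM scales (14.3%, against 5.9% of all genes). DESeq2 without Girk3-null replicate 1 gave 3 lower (3.57%, against 14.6% of all genes). Leaving out single libraries gave 25 to 44 higher. The 25 came without Girk3-null replicate 1 (29.8% against 14.3% of all genes). The 44 came without Girk3-null replicate 3 (52.4% against 17.6% of all genes). Lower were 1 to 9 (9 without wild type replicate 3, or 10.7% against 22% of all genes). The median log2 fold change, 0.18, was 0.074 with library totals, 0.070 on log2(RPKM + 0.1), 0.059 on log2(RPKM + 1), 0.11 with the GC offset, 0.090 with DESeq2 without Girk3-null replicate 1, and 0.097 (without Girk3-null replicate 1) to 0.27 (without Girk3-null replicate 3) leaving out single libraries.

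Of 26 named members, 7 turned direction under some setting, and the cause was not tested. Under library totals, log2(RPKM + 0.1), log2(RPKM + 1) and the GC offset, in that order, Cox6a2 had -0.088, -0.013, -0.017 and -0.049 and Cox7a2 -0.082, -0.11, -0.11 and -0.042. Under the first 3 of these Cox6b1 had -0.028, -0.034 and -0.034, and under the GC offset Cox4i1 had -0.013 and Cox8a -0.0056. With the title number covariate Cox7a1 had 0.0080. With DESeq2 without Girk3-null replicate 1 the values were -0.030 for Cox6b1, -0.14 for Cox7a2 and -0.015 for Sdhc. Leaving out single libraries gave -0.22 to 0.38 for Cox6a2, -0.13 to 0.21 for Cox7a2, -0.023 to 0.20 for Cox6b1 and -0.0084 to 0.25 for Sdhc. It gave -0.67 to 0.088 for the difference in the Cox7a1 to Cox7a2 log2 ratio, positive without wild type replicate 1. No paired analysis was possible because the labels give no shared replicate numbers. With 3 libraries per group, an exact permutation test cannot go below 0.1, and Cox8b, Cox6a2 and Cox7a1, at 1 to 48 counts per library, are limited by depth.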
